A study of Mus musculus with 6 samples.

Results

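Antigen presentation through major histocompatibility complex (MHC) molecules was described through 9 genes in bone marrow neutrophils from mice. The genes were chosen by name, 4 from the class I pathway (H2-D1, H2-K1, B2m and Tap1) and 5 from the class II pathway (H2-Aa, H2-Ab1, H2-Eb1, Cd74 and Ciita), out of 51789 genes in the deposited count table. All 9 were found, and 8 passed the filter on low counts that left 10397 genes for testing. The cells had been picked with beads against Ly6G, a surface protein of mouse neutrophils, to a stated purity above 95%, and the libraries (Lexogen QuantSeq) read a tag near the 3′ end of polyadenylated RNA. The 3 libraries labelled KO are named as a knockout of Snph, the gene of the mitochondrial anchor syntaphilin, and the 3 libraries labelled WT are named as its controls. The sources used here do not state strain, MHC haplotype, age, the knockout allele or whether each library came from its own animal, so p-values measure the spread between these libraries, which may be technical.

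Class I molecules are carried by nearly all nucleated cells. A heavy chain such as the products of H2-K1 and H2-D1 pairs with beta-2 microglobulin and shows peptides from the cytosol to CD8 T cells, after the TAP transporter has moved those peptides into the endoplasmic reticulum. Class II molecules are mostly made by B cells, dendritic cells and macrophages, where they show peptides from endosomes to CD4 T cells, and resting neutrophils are known for little of them. The invariant chain, encoded by Cd74, escorts class II molecules, and the coactivator encoded by Ciita turns on their genes.

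Library depth was 7179569 to 9165218 counts in the KO-labelled and 7018388 to 9664381 counts in the WT-labelled libraries. Neutrophil identity was plain in both groups: 10 neutrophil markers summed to between 311350 and 331457 CPM (counts per 1000000, scaled by TMM factors) in the KO-labelled and to between 273084 and 292875 CPM in the WT-labelled libraries. Of these 10 markers 9 lay above 0, and S100a8 and Retnlg were called higher in the KO-labelled libraries (edgeR, log2 0.24 and 0.35, adjusted p = 0.0315 and 0.00499). The targeted gene went against the labels, since Snph had 5, 2 and 8 counts in KO 1, 2 and 3 and 0 counts in each WT-labelled library (exact permutation test, two-sided, of log2(CPM + 0.1), p = 0.1, the smallest p that 3 against 3 libraries allow). Which exons the allele removes was not stated. Neither a 3′ tag kept by the allele nor an exchange of the labels was tested. An exchange would reverse every direction below, and all directions follow the labels as they stand. Over all genes, 107 passed an adjusted p of 0.05 in the quasi-likelihood test of edgeR, 82 of them lower in KO-labelled libraries and 25 higher, a share of 76.6% lower that was 88.9% with scaling to the total count, which moved the median of all genes by -0.10 on the log2 scale.

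The promoters of 6 of the 9 genes (H2-D1, H2-K1, B2m, Tap1, H2-Aa and H2-Eb1) were in the RefSeq promoter table. Each entry (build GRCm38.p6) runs from 250 bases before to 50 after a start. The stretches around matches to letters of control elements are shown here. Class I and class II genes are known to be switched on through such elements. The stretch of Tap1, with a Y box match alone, was left out. Capitals mark matches, on either strand, to CCAAT (the Y box), TGACGT (part of the X2 box), GGGATTC (part of enhancer A), the X box core (in H2-Eb1) or the core of the interferon-stimulated response element, ISRE (in B2m).
H2-D1, chr17:35262912-35263057, plus strand: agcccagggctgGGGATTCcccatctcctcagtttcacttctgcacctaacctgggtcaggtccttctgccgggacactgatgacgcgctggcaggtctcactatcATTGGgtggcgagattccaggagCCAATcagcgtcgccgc
H2-K1, chr17:34000323-34000469, minus strand: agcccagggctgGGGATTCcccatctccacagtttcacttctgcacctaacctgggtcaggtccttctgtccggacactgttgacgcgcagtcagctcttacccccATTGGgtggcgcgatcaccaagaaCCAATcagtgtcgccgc
B2m, chr2:122147536-122147650, plus strand: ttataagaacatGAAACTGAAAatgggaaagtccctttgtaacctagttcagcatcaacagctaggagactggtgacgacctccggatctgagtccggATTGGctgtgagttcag
H2-Aa, chr17:34287855-34287909, minus strand: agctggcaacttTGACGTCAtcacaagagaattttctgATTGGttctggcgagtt
H2-Eb1, chr17:34305764-34305848, plus strand: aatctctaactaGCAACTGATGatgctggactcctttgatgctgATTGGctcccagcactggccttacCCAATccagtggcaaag

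The H2-D1 and H2-K1 stretches were 88.4% identical over 147 aligned positions, and both carried the enhancer A letters followed by 2 Y box matches. The H2-Aa stretch held the X2 letters on both strands, overlapping, in front of a Y box, and the H2-Eb1 stretch an X box core in front of 2 Y boxes. B2m had ISRE letters and a Y box, and Tap1 had 1 Y box match. Among 32851 promoters of the same length, 37.4% held the Y box letters, 7.51% those of X2, 3.44% the ISRE core, 3.08% the enhancer A part and 0.861% the X box core. A match is a run of letters and was not shown to be bound here. Only these letters were searched for, so a promoter without a match may still hold a variant of the element.

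**Figure D1:**
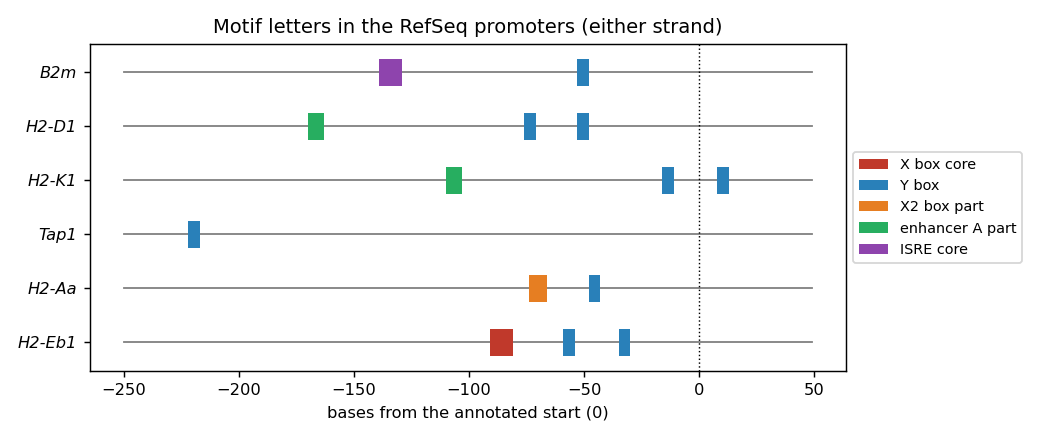
Positions of the motif matches in the 6 promoters found, in bases from the annotated start at 0, with each promoter drawn from 250 bases before to 49 after it. All 6 promoters have a Y box match, and the first listed start is used for H2-K1, which has 2.

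Class I genes were at high levels in every library and class II genes at low ones. The 4 class I members summed to 4925 ± 414 CPM in the KO-labelled and 4622 ± 785 CPM in the WT-labelled libraries, and the 4 class II members without Ciita summed to 116 ± 26.5 CPM in the KO-labelled and 155 ± 26.3 CPM in the WT-labelled libraries (SD, n = 3 each). The class I sum was thus 42.4 times the class II sum in the KO-labelled and 29.9 times in the WT-labelled group. These levels are not divided by transcript length, because a 3′ tag library yields tags per transcript and not per base. In this measure the order by mean was B2m, H2-D1, H2-K1, Tap1, H2-Aa, H2-Eb1, H2-Ab1, Cd74 and Ciita. B2m and H2-D1 were not separated beyond their spread (B2m was higher in 4 of 6 libraries), and neither were H2-Aa, H2-Eb1, H2-Ab1 and Cd74 from their neighbours, each step being kept in 4 or 5 of 6 libraries. The steps from H2-D1 to H2-K1 (3.50-fold), to Tap1 (6.78-fold) and to H2-Aa (2.22-fold) were kept in 6 of 6 libraries.

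By edgeR, none of the 8 tested members was called between the groups, while DESeq2 called Cd74. Adjusted over all genes by edgeR's quasi-likelihood test, 0 of 8 tested members passed, where 1.03% of all tested genes did, and limma-voom called 0 as well. At an unadjusted p under 0.05 there were 3 members, H2-Ab1, H2-Eb1 and Cd74, all lower in the KO-labelled libraries, beside 11.4% of all genes tested. DESeq2 called 1 member, Cd74, at an adjusted p of 0.0490, and so did edgeR with no filter on low counts (adjusted p = 0.00119).

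**Figure D2:**
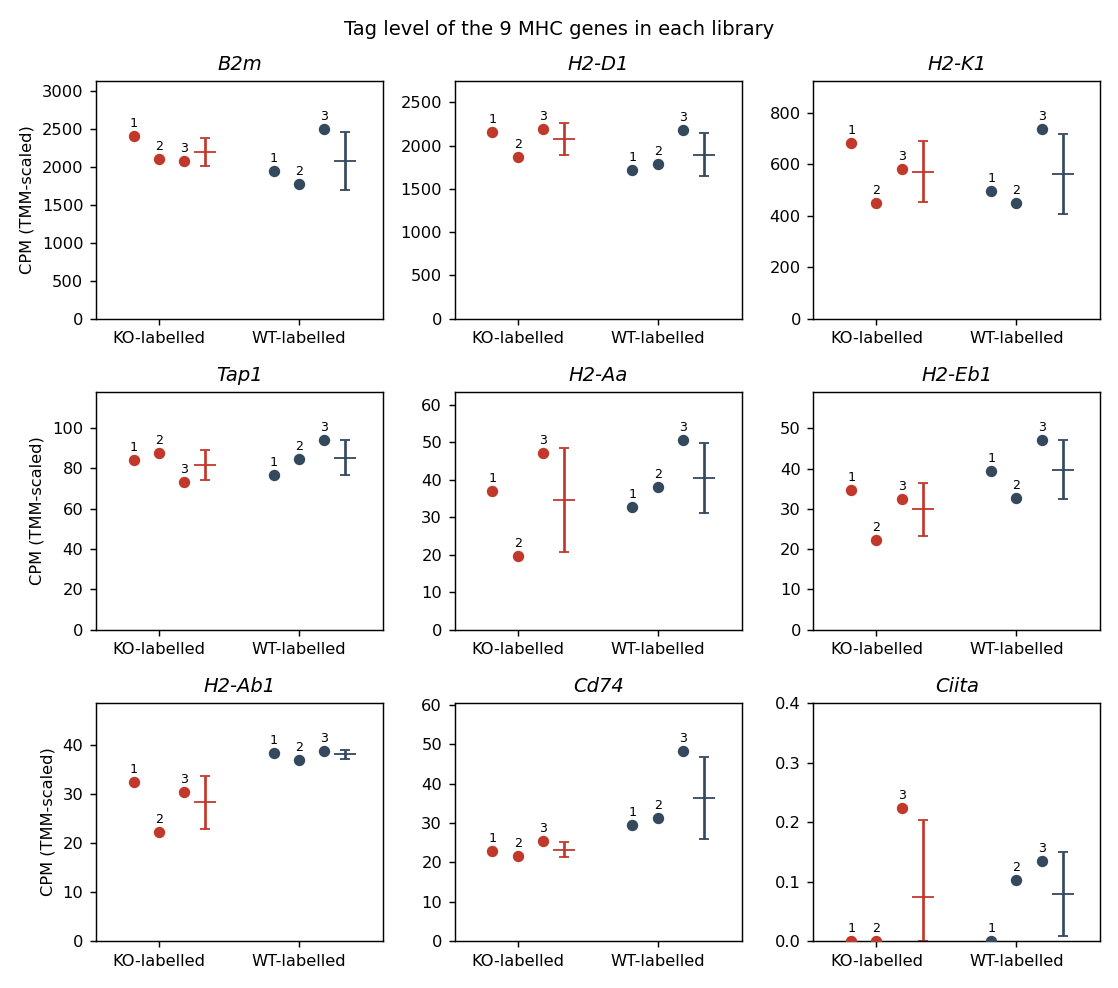
TMM-scaled CPM of each gene in each library (points, numbered by replicate), with the mean and SD of the 3 libraries of a group beside them; axes start at 0. Only H2-Ab1 and Cd74 among the tested members show KO-labelled and WT-labelled points that do not overlap, and WT 3 is the highest library for B2m, H2-K1, Tap1 and all 4 class II genes above Ciita.

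Among the class I genes, B2m (ENSMUSG00000060802, chromosome 2, 122147686 to 122153083, mm10) encodes the light chain shared by all classical class I molecules. It was at 2411, 2111 and 2077 CPM in KO 1, 2 and 3, against 1950.4, 1780.4 and 2508 CPM in WT 1, 2 and 3. The WT-labelled libraries spanned the KO-labelled ones, with WT 3 above all others. Its log2 fold change was 0.08 (SE 0.10, 95% interval -0.14 to 0.30, edgeR adjusted p = 0.847), so a change beyond 1.23-fold upward or to under 0.906 of the WT-labelled level lay outside the interval. B2m alone took 0.212% ± 0.0176 of all counts in the KO-labelled and 0.216% ± 0.0442 in the WT-labelled libraries (SD, n = 3 each).

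H2-D1 (ENSMUSG00000073411, chromosome 17, 35262730 to 35267499), a classical heavy chain gene, was at 2158, 1862 and 2196 CPM in KO 1, 2 and 3, against 1715, 1788 and 2184 CPM in WT 1, 2 and 3. Both groups overlapped, KO 1, KO 3 and WT 3 lying together above the other 3 libraries. The log2 fold change was 0.13 (SE 0.09, interval -0.07 to 0.32, edgeR adjusted p = 0.664). H2-K1 (ENSMUSG00000061232, chromosome 17, 33996017 to 34000347), the other classical heavy chain gene measured, was at 684, 449 and 582 CPM in the KO-labelled and at 495, 451 and 739 CPM in the WT-labelled libraries. The same 3 libraries were the highest, with a wider spread than in H2-D1, and the log2 fold change of 0.03 had an interval of -0.32 to 0.37 (SE 0.16, edgeR adjusted p = 0.967). Its sign turned with scaling to the total count (-0.08) and without KO 1, WT 1 or WT 2 (-0.12, -0.06 and -0.11). The tags of the pair could be told apart for the most part: of the 251 windows of 50 bases in the last 300 bases of the longest coding transcript, 0.797% of those of H2-K1 occurred word for word in H2-D1, and 17.1% of those of H2-D1 in transcripts of any other gene. No such window was shared for the other 7 members. These values hold for the reference sequence, and MHC alleles of other strains differ.

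Tap1 (ENSMUSG00000037321, chromosome 17, 34187553 to 34197225), which encodes one chain of the peptide transporter, had the smallest spread within groups of the 8 tested members. It was at 84.1, 87.8 and 73.2 CPM in KO 1, 2 and 3 and at 76.9, 84.8 and 94.2 CPM in WT 1, 2 and 3. The groups overlapped, and the log2 fold change was -0.06 (SE 0.10, interval -0.28 to 0.15, edgeR adjusted p = 0.879). Its first exons overlap those of Psmb9 on the opposite strand. The strand setting of the counting is not given, although the overlap is at the 5′ ends of both genes and the tags come from the 3′ ends.

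All 4 class II genes above Ciita had a negative log2 fold change, of which none passed the test. H2-Aa (ENSMUSG00000036594, chromosome 17, 34282744 to 34287823) and H2-Ab1 (ENSMUSG00000073421, chromosome 17, 34257689 to 34269419) encode the alpha and beta chain of the mouse molecule I-A. H2-Aa was at 37.1, 19.7 and 47.1 CPM in KO 1, 2 and 3, against 32.6, 38.1 and 50.7 CPM in WT 1, 2 and 3. The groups overlapped, with KO 2 far below the other libraries. The log2 fold change was -0.21 (SE 0.23, interval -0.70 to 0.28, edgeR adjusted p = 0.815), and without KO 2 it was 0.06. H2-Ab1 was at 32.5, 22.2 and 30.4 CPM in the KO-labelled and at 38.4, 37.0 and 38.8 CPM in the WT-labelled libraries. Every KO-labelled library lay below every WT-labelled one, with KO 2 the lowest. The log2 fold change was -0.42 (SE 0.14, interval -0.72 to -0.12, edgeR unadjusted p = 0.00861, adjusted p = 0.219), and without KO 2 it was -0.28.

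H2-Eb1 (ENSMUSG00000060586, chromosome 17, 34305867 to 34316674) encodes the beta chain of the second class II molecule, I-E. It was at 34.8, 22.4 and 32.5 CPM in KO 1, 2 and 3, against 39.5, 32.6 and 47.2 CPM in WT 1, 2 and 3. KO 1 lay above WT 2, and KO 2 was the lowest library again. Its log2 fold change was -0.40 (SE 0.17, interval -0.76 to -0.05, edgeR unadjusted p = 0.0294, adjusted p = 0.369), and -0.24 without KO 2 and -0.26 without WT 3.

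Cd74 (ENSMUSG00000024610, chromosome 18, 60803848 to 60812652) had the largest difference of the 8 tested members. It was at 22.8, 21.6 and 25.3 CPM in KO 1, 2 and 3, against 29.6, 31.2 and 48.4 CPM in WT 1, 2 and 3. The groups did not overlap, and WT 3 stood well above the other WT-labelled libraries. The log2 fold change was -0.64 (SE 0.17, interval -1.01 to -0.27, edgeR unadjusted p = 0.00235, adjusted p = 0.121), which is 0.643 of the WT-labelled level. Without WT 3 it was -0.38, with an adjusted p of 0.357, and over all alternatives the adjusted p ran from 0.00119 to 0.357. Cd74 and H2-Ab1 were the 2 of 8 members whose libraries did not overlap between the groups, as was so for 16.8% of all tested genes.

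Ciita (ENSMUSG00000022504, chromosome 16, 10480059 to 10528418) was at the limit of detection. It had 0, 0 and 2 counts in KO 1, 2 and 3 and 0, 1 and 1 counts in WT 1, 2 and 3. Both pooled groups were thus below a floor of 3 counts, which corresponds to 0.125 CPM over the KO-labelled and 0.122 CPM over the WT-labelled group (counting error only), and no difference was detectable at this depth. Its exons overlap those of Dexi on the opposite strand, so even these counts cannot be assigned with certainty.

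**Figure D3:**
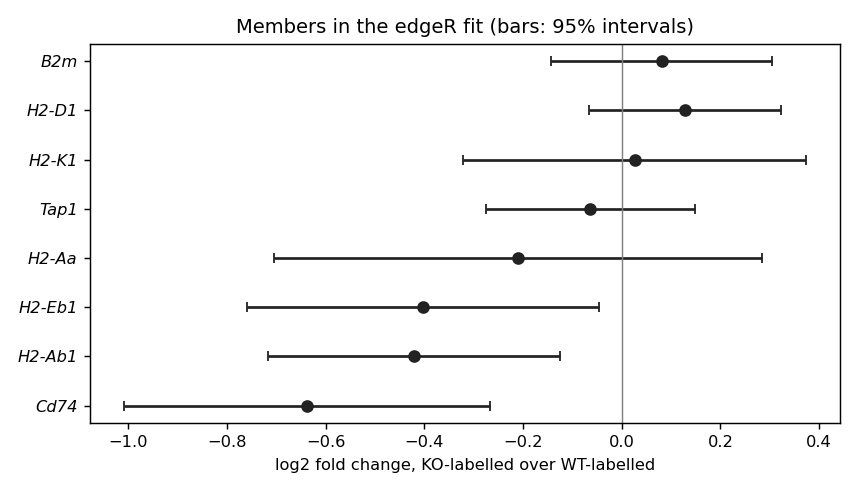
Log2 fold change, KO-labelled over WT-labelled, of the 8 tested members with 95% intervals from the edgeR fit, unadjusted for the number of genes. The 4 class I genes have intervals that include 0, from -0.32 to 0.37 at the widest, and the 4 class II genes lie between -0.64 and -0.21.

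None of the other class I pathway genes was called by edgeR. Of 13 tested class I molecules and relatives, 0 were called by edgeR in either direction (0.789% of all tested genes were called lower and 0.24% higher), with a median log2 fold change of 0.03 beside 0.0057 for all genes tested. After the members, the most abundant was H2-Q10, known as a gene of a secreted class I molecule in the liver, at 229 ± 15.5 CPM in the KO-labelled and 191 ± 13.9 CPM in the WT-labelled libraries (SD, n = 3 each; log2 0.26, SE 0.09, edgeR adjusted p = 0.227). H2-Q7, which encodes the non-classical molecule Qa-2, was second, at 32.4 ± 12.8 CPM and 42.9 ± 31.9 CPM in the same order (edgeR adjusted p = 0.784). H2-Q10 was the 1 gene of the 13 whose libraries did not overlap between the groups, beside 16.8% of all tested genes. The fold changes of the 13 ran furthest from 0 in genes at low levels, H2-T23 (log2 -0.89), Cd1d1 (-0.84) and H2-M5 (1.35), which are named after their values were seen and have intervals that include 0. H2-Q1, H2-Q2, H2-T3 and H2-M9 were at 0 counts in all 6 libraries.

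Peptide supply and loading genes of class I were represented by 13 tested genes, with 0 called and a median of -0.06. The most abundant that are not members were Tapbp, encoding the loading bridge tapasin, at 228 ± 21.4 CPM in the KO-labelled and 216 ± 16.96 CPM in the WT-labelled libraries, and Psme1, encoding a proteasome activator subunit, at 131 ± 2.91 CPM and 128 ± 5.69 CPM in the same order (SD, n = 3 each). The libraries of the groups did not overlap for 2 of the 13, Pdia3 and Canx, which encode chaperones that fold class I chains, a share near the 16.8% of all tested genes. Pdia3 was at 35.0, 33.1 and 33.03 CPM in KO 1, 2 and 3 and at 40.4, 45.7 and 48.2 CPM in WT 1, 2 and 3, a log2 fold change of -0.41 (edgeR adjusted p = 0.121) that passed with scaling to the total count (0.0409). Tapbp counts are uncertain, since its exons overlap those of Zbtb22 on the same strand.

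Of the class II molecules and chaperones, 7 of 10 genes were tested, edgeR called 0 (1.03% of all genes tested), 6 lay below 0 and the median was -0.42, beside 0.0057 for all genes tested. The 7 include Cd74, which DESeq2 (adjusted p = 0.0490) and edgeR with no filter (0.00119) called. The genes of H2-DM, the exchange factor that loads peptides on class II, were lower than the 4 members: H2-DMa averaged 6.34 ± 2.98 CPM in the KO-labelled and 9.54 ± 1.83 CPM in the WT-labelled libraries, and H2-DMb1 5.90 ± 0.442 CPM and 8.99 ± 2.42 CPM in the same order (SD, n = 3 each). H2-DMa and H2-DMb1 had log2 fold changes of -0.56 and -0.60 (edgeR adjusted p = 0.523 and 0.348). H2-DMb2 was the gene above 0 (log2 0.17, edgeR adjusted p = 0.859). For 3 of the 7 genes, H2-Ab1, Cd74 and H2-DMb1, the libraries of the groups did not overlap, beside 16.8% of all tested genes. Exons of H2-DMa overlap those of Brd2 on the opposite strand, which leaves its counts uncertain.

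Class II peptide supply and turnover had 1 of 7 tested genes called by edgeR, beside 1.03% of all genes tested (0.789% lower). Lgmn, encoding the lysosomal protease legumain, fell to 8.22, 5.59 and 7.25 CPM in KO 1, 2 and 3, against 17.5, 17.98 and 23.6 CPM in WT 1, 2 and 3 (log2 -1.48, SE 0.20, edgeR adjusted p = 0.00114). Every KO-labelled library was below every WT-labelled one, and the call was kept in 14 of 14 alternatives. Ctss, encoding cathepsin S, which trims the invariant chain, was at 48.4, 49.3 and 49.3 CPM in the KO-labelled and 57.4, 62.2 and 80.0 CPM in the WT-labelled libraries. Its groups did not overlap either (as for 16.8% of all tested genes), but it did not pass (log2 -0.44, SE 0.12, edgeR adjusted p = 0.104), except with scaling to the total count (0.0445) and with no filter (0.0103). Sppl2a, encoding the intramembrane protease that removes the last stub of the invariant chain, was at 85.7 ± 3.55 CPM in the KO-labelled and 79.1 ± 8.92 CPM in the WT-labelled libraries, and March1, encoding a ubiquitin ligase that takes class II off the surface, at 43.4 ± 6.27 CPM and 39.4 ± 2.96 CPM in the same order (SD, n = 3 each; edgeR adjusted p = 0.722 and 0.763). The median of the 7 genes was 0.12.

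Regulators other than Ciita averaged from 6.87 CPM (Nlrc5) to 76.5 CPM (Creb1) over the 6 libraries. Of 8 tested regulators of MHC transcription 0 were called, with a median of 0.08. The 2 most abundant were Creb1 at 80.6 ± 8.23 CPM in the KO-labelled and 72.5 ± 8.09 CPM in the WT-labelled libraries and Nfyb, a subunit of the factor that binds the Y box, at 36.2 ± 1.14 CPM and 40.6 ± 4.14 CPM in the same order (SD, n = 3 each). Nlrc5, encoding the class I counterpart of CIITA, was at 6.54 ± 1.11 CPM and 7.21 ± 3.36 CPM likewise (edgeR adjusted p = 0.928), a gene outside the naming rule.

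Within interferon gamma signalling, which induces both classes, 1 of 9 tested genes was called by edgeR, beside 1.03% of all genes tested, and the median was 0.02. Irf8, encoding a transcription factor of monocytes, dendritic cells and B cells, fell to 18.6, 15.6 and 17.9 CPM in KO 1, 2 and 3, against 37.5, 33.1 and 34.4 CPM in WT 1, 2 and 3 (log2 -1.01, SE 0.13, edgeR adjusted p = 0.00104), and was called in 14 of 14 alternatives. The 2 most abundant genes of the list were Jak1, the receptor kinase gene, at 702 ± 28.3 CPM in the KO-labelled and 661 ± 24.7 CPM in the WT-labelled libraries, and Irf1, a transcription factor gene that acts on class I promoters, at 199 ± 22.6 CPM and 163 ± 8.80 CPM in the same order (SD, n = 3 each; edgeR adjusted p = 0.717 and 0.194). Costimulation genes had 0 of 4 tested called (median -0.08), the most abundant being Icosl at 37.0 ± 5.59 CPM and 36.5 ± 6.26 CPM and Cd86 at 9.28 ± 1.16 CPM and 10.5 ± 1.37 CPM in the KO-labelled and WT-labelled libraries (SD, n = 3 each). Cd40, below the filter and named after its values were seen, had 0, 1 and 1 counts in KO 1, 2 and 3 and 4, 21 and 6 counts in WT 1, 2 and 3.

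Markers of other cell types that carry class II moved with the groups in part. Of 13 macrophage markers 12 fell and 0 rose by edgeR, beside 0.789% of all tested genes called lower and 0.24% higher. Their median was -1.08, beside 0.0057 for all genes, with a summed level of 797 to 946 CPM in the KO-labelled and 1505 to 1609 CPM in the WT-labelled libraries; none was at 0 in any library. The most abundant, Vcam1 and Slc40a1, averaged 179 ± 30.6 and 248 ± 12.5 CPM in the KO-labelled and 365 ± 26.4 and 291 ± 14.9 CPM in the WT-labelled libraries (SD, n = 3 each), and Slc40a1 was the marker that did not pass (edgeR adjusted p = 0.232). Of 9 tested B cell markers 0 were called (median -0.42), and the 12 on the list summed to 25.4 to 32.8 CPM and 33.2 to 40.3 CPM in the same order. Among them Cd79b, a chain of the B cell receptor, averaged 5.21 ± 0.198 CPM in the KO-labelled and 8.87 ± 0.871 CPM in the WT-labelled libraries (SD, n = 3 each), while Ms4a1 and Blk were at 0 in KO 1 and KO 2, one each. Ebf1, a transcription factor gene of the B cell lineage, averaged 4.23 ± 1.40 CPM in the KO-labelled and 4.25 ± 1.23 CPM in the WT-labelled libraries (SD, n = 3 each).

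Dendritic cell markers were near the limit of detection apart from Itgax, which neutrophils and macrophages express too, and 1 of 9 passed the filter. The sums were 27.2 to 31.7 CPM in the KO-labelled and 28.9 to 31.4 CPM in the WT-labelled libraries. Most of each sum was Itgax, at 26.3 ± 1.73 CPM and 26.2 ± 1.38 CPM in the same order (SD, n = 3 each). The defining genes Flt3, Xcr1 and Cd209a each had 0 counts in at least 1 library. Monocyte markers, 6 tested with 0 called (median -0.18), summed to 1527 to 1691 CPM and 1463 to 1703 CPM in the same order. Most of that sum was Ly6c2, at 1436 ± 76.0 CPM in the KO-labelled and 1377 ± 112 CPM in the WT-labelled libraries, and Csf1r, at 182 ± 17.8 CPM and 184 ± 13.8 CPM in the same order (SD, n = 3 each). Of the 6 monocyte markers 5 lay below 0, and the 1 above 0 was Ly6c2 (log2 0.06), so the sum mainly followed that gene. Among the 5 was Ms4a6c, named after its values were seen, at -0.83 with groups that did not overlap (edgeR adjusted p = 0.243). Ccr2, named likewise, was at -0.74 (edgeR adjusted p = 0.681). It averaged only 1.37 ± 0.918 CPM in the KO-labelled and 2.32 ± 0.579 CPM in the WT-labelled libraries (SD, n = 3 each), and its groups overlapped. In bulk samples fewer cells of a type and less RNA per cell cannot be told apart, and the part of any of these cell types in the class II levels was not tested.

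**Figure D4:**
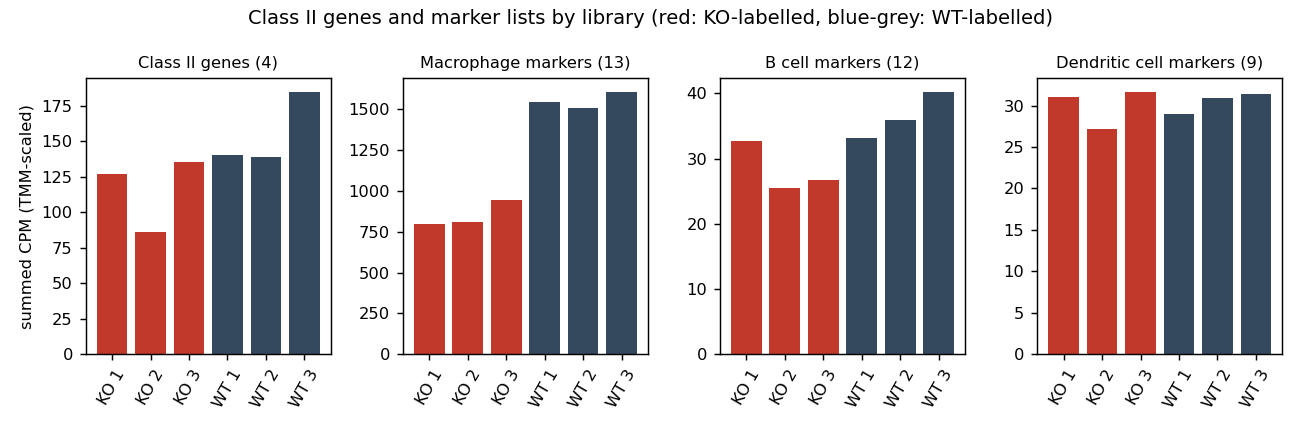
Summed TMM-scaled CPM of the 4 class II members and of 3 marker lists in each library, with KO-labelled libraries to the left. Most of the dendritic cell sum is Itgax. The class II sums are 85.9 to 135 CPM in the KO-labelled and 139 to 185 CPM in the WT-labelled libraries, and the macrophage sums 797 to 946 CPM and 1505 to 1609 CPM.

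The class II members also differed among the libraries of one group, and not in the same proportion as the macrophage markers. KO 2 had a class II sum of 85.9 CPM, against 127 and 135 CPM in KO 1 and KO 3, while its macrophage sum (810 CPM) lay between theirs (797 and 946 CPM). KO 2 also stood apart in plasma cell markers, which summed to 1314 CPM against 563 and 533 CPM in KO 1 and KO 3, and in erythroid markers, with 2785 CPM against 1672 and 1403 CPM. WT 3 had a class II sum of 185 CPM, against 140.1 and 139 CPM in WT 1 and WT 2. The macrophage sums were 1609 CPM in WT 3 and 1543 and 1505 CPM in WT 1 and WT 2. B cell markers were also lowest in KO 2, at 25.4 CPM against 32.8 and 26.8 CPM in KO 1 and KO 3. They were highest in WT 3, at 40.3 CPM against 33.2 and 35.9 CPM in WT 1 and WT 2. KO 3, with the highest class II sum of the KO-labelled libraries, was near KO 2 in B cell markers. The part of any of these cells in the class II sums of KO 2 and WT 3 was not tested. The ratio of H2-Aa to H2-Ab1, the 2 chains of one molecule, ran from 0.850 in WT 1 to 1.55 in KO 3, and averaged 1.19 ± 0.335 in the KO-labelled and 1.06 ± 0.229 in the WT-labelled libraries (SD, n = 3 each). These 4 genes had 134 to 422 counts in each library.

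Spread between libraries of the same group was wide in several MHC genes. The spread within groups was taken as the SD of log2(CPM + 1), pooled over both groups. It was ranked among the 5935 tested genes that averaged 10 CPM or more. The ranking was not matched for level, and counting noise weighs more on genes with few counts. H2-Aa had a larger spread than 99.2% of these genes, H2-K1 than 96.5%, H2-Eb1 than 94.2% and Cd74 than 92.4%. H2-Ab1, B2m, H2-D1 and Tap1 were nearer the middle, at 76.4%, 76.1%, 61.3% and 51.0%. Among the 42 genes of the pathway lists at this level, 11 were in the top 10 percent, 7 of the 14 on chromosome 17 and 4 of the 28 elsewhere.

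Tap2, the partner of Tap1, was at the far end, a gene named here after its values were seen, as are the next 3. It was at 38.8, 11.9 and 24.2 CPM in KO 1, 2 and 3 and at 13, 13.9 and 67.0 CPM in WT 1, 2 and 3, a 5.62-fold range, whereas Tap1, close by on the chromosome, varied 1.29-fold. H2-Q7 had 45.8, 20.4 and 31.0 CPM in the KO-labelled and 30.3, 19.2 and 79.2 CPM in the WT-labelled libraries. H2-T22, a non-classical heavy chain gene, had 27.1, 19.0 and 27.8 CPM in the KO-labelled and 16.6, 18.5 and 35.3 CPM in the WT-labelled libraries. Psmb9, an immunoproteasome subunit gene, had 153, 96.3 and 123 CPM in the KO-labelled and 97.3, 96.2 and 156 CPM in the WT-labelled libraries. For each of these genes and for H2-K1, WT 3 was the highest and KO 1 and KO 3 were above KO 2, WT 1 and WT 2, other than KO 1 and KO 3 changing places in H2-T22. H2-T22 shares 49.4% of its 3′ windows with H2-T10 and is uncertain, while Tap2, H2-Q7 and Psmb9 share none with another gene. Psmb8, which lies between Tap1 and Tap2, varied 1.11-fold over the same libraries.

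**Figure D5:**
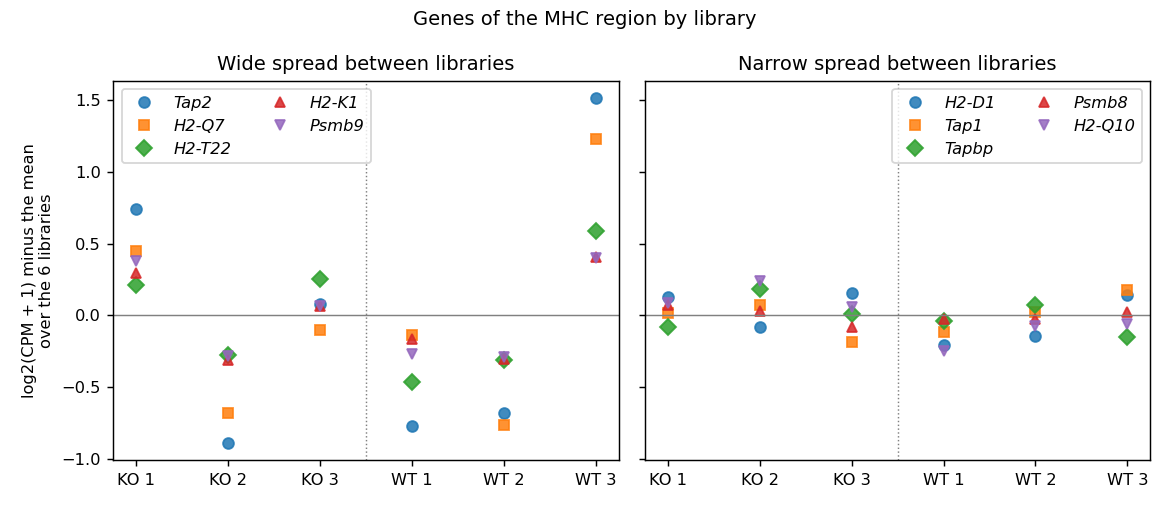
Level of 10 genes of the MHC region in each library as log2(CPM + 1) minus the gene's mean over the 6 libraries; the dotted line parts KO-labelled (left) from WT-labelled libraries. In the left panel WT 3 and KO 1 are above 0 for all 5 genes and KO 2, WT 1 and WT 2 below 0, while the 5 genes of the right panel stay closer to 0; the division into panels was made after the values were seen.

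The genes whose profile over the 6 libraries was closest to the class II members were Sulf2, Pramef8, Gnpat, Cops6 and Arcn1, with a root mean square difference of 0.06 to 0.11 on the log2 scale from the mean centred class II profile, among 5935 genes compared. The members themselves lay 0.09 (H2-Eb1) to 0.21 (H2-Aa) from that profile. Sulf2 was at 12.7, 8.53 and 12.2 CPM in KO 1, 2 and 3 and at 12.8, 13.3 and 17.5 CPM in WT 1, 2 and 3, so that KO 2 was lowest and WT 3 highest, as in the class II sum. Closest to the class I members were Ostc, Fam107b, Gbp2, Tmed4 and Trmt1l, at 0.04 to 0.05, of which Gbp2 encodes an interferon-induced GTPase. Gbp2 was at 18.3, 16.3 and 18.4 CPM in the KO-labelled and 15.6, 15.2 and 21.6 CPM in the WT-labelled libraries. This likeness is a description over 6 libraries, and it was not tested.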

How the data were processed

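Counts are as deposited by the authors: whole reads for each Ensembl gene and library, with no scaling. The submitters' processing notes list RSEM 1.2.3, DESeq2 and mm10 without saying what each was used for. Aligner, annotation release and strand setting were not given in the sources used here. Columns were matched to samples by name, and gene names and coordinates came from GENCODE vM21 (GRCm38, the assembly of mm10), which named 51596 of 51789 identifiers; promoters came from RefSeq.

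The test was the quasi-likelihood F-test of edgeR 4.0.16 under R 4.3.3 (TMM factors, filterByExpr with minimum count 10 and minimum total 15, Benjamini-Hochberg over 10397 genes, threshold 0.05), all 6 libraries with the group as the one term. The SE is the log2 fold change divided by the square root of F. One count was worth 0.103 to 0.142 CPM of the total. No replicates agreed within sampling noise (chi-square per degree of freedom 4.12 to 6.79). The procedure was tested on simulated counts.

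The 9 genes and all lists were chosen with earlier results of these data known. Named genes are the members; of each pathway list the called genes and otherwise the 2 most abundant that are not members; of each cell type list the 2 most abundant and defining genes at 0, with values given for the types that carry class II; and the 5 genes nearest in profile to each class, predicted genes left out. Lists were described by counts and medians. In the plasma cell list edgeR called 3 of 5 tested genes higher, and in the platelet list 3 of 4 lower. The neutrophil list had 2 of 10 called higher, and the eosinophil and basophil list 1 of 6 lower. T and NK cell and erythroid lists had 0 of 3 and 0 of 7 called. Over all tested genes, 0.24% were called higher and 0.789% lower. Alternatives were DESeq2 1.42.0, limma-voom (limma 3.58.1), other scaling, other filters, the replicate block and leaving out each library.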

Additional observations from a re-analysis of the deposited data

How the results depend on the processing

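With DESeq2, 174 genes were called in all (65.5% lower), with scaling to the total count 162 and with no filter 287 (60.3% lower), against 107 (76.6% lower) by edgeR as used; without 1 library the count was 49 to 97. Of the members, 1 was called with DESeq2 and 1 with no filter, Cd74 each time, and 0 in the other 12 alternatives. With scaling to the total count the log2 fold change turned for H2-K1 (-0.082) and B2m (-0.027). Without 1 library it ran from -0.12 to 0.28 for H2-K1, -0.017 to 0.24 for B2m, -0.13 to 0.014 for Tap1 and -0.51 to 0.062 for H2-Aa. H2-D1 stayed above 0 (0.063 without WT 1 to 0.24 without WT 3, and 0.023 with total-count scaling), and H2-Ab1, H2-Eb1 and Cd74 below 0, in 14 of 14 alternatives. Same-numbered libraries did not deviate together (correlations of -0.03, -0.01 and -0.13). Deviations from means of 3 libraries cannot exclude that the numbers pair them. A fit with the replicate block called 92 genes and 0 members. Depth limits Ciita, below its floor in both groups.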

Other observations

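A profile close to that of Tap2, once scaled for size, was found in genes outside the MHC. The 20 genes nearest to Tap2 in standardised profile, a choice made after the values were seen, lay on 12 chromosomes, and 3 of them (15%) were on chromosome 17, beside 5.19% of the 5935 genes compared. The 20 genes varied from 1.13-fold (Ttc39b) to 3.44-fold (Rnf130) over the 6 libraries, and the nearest, Sav1, 1.69-fold, against 5.62-fold for Tap2. Those on chromosome 17 were H2-K1, Psmb9 and Gtpbp2, the last of which lies at 46161032 to 46169370 (mm10), well outside the MHC. H2-K1 and Psmb9 had already been named above for sharing the library order of Tap2, so the share of 15% is not a separate result. Rnf130 on chromosome 11, which encodes a RING finger protein, had 68.3, 31.2 and 61.1 CPM in KO 1, 2 and 3 and 30.1, 38.2 and 103 CPM in WT 1, 2 and 3. Dock8 on chromosome 19, encoding a guanine nucleotide exchange factor of leukocyte migration, had 41.8, 25.1 and 36.8 CPM in the KO-labelled and 30.7, 31.1 and 61.7 CPM in the WT-labelled libraries. For Gtpbp2, Rnf130 and Dock8, KO 1, KO 3 and WT 3 were the 3 highest libraries. Choosing genes by likeness to Tap2 selects for this order, so it is not a separate result. No cause was tested.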
